A study of Homo sapiens with 8 samples.

Results

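The genes of MHC class I antigen presentation described here are 9 rows, matched by symbol in both deposited count tables of HCT116, a human colorectal cancer cell line. They are HLA-B, HLA-C, HLA-E and HLA-F, which encode heavy chains, B2M, which encodes their light chain, TAP1, TAP2 and TAPBP, which act in peptide loading, and NLRC5, a transactivator of the pathway. All 9 were listed and passed the filter on low counts in both tables, among 42125 genes in the table of TFAP2C KD and 23393 genes in that of UBA2 KD. The rule that chose them uses no measured value, but the members were chosen with earlier results of these data known. The study asked how SUMOylation and the transcription factor TFAP2C act on enhancers, and mRNA was sequenced from 8 libraries in 4 groups of 2. TFAP2C KD cells received an siRNA against TFAP2C and their controls a control siRNA, both for 48 hrs. UBA2 KD cells were given 1 μg/mL of Dox for 5 days to induce an shRNA against UBA2, also named SAE2, a subunit of the SUMO E1 enzyme, and their controls were given DMSO. The labels place the Tet-On shSAE2 construct in the cells of all 4 groups, so the siRNA experiment was also done in cells that carry it. Dox and the shRNA cannot be told apart in this design, because no library had Dox without the shRNA. Neither the labels nor the methods say that replicates came from separate cultures, so the p-values measure only the spread between these libraries, which may be technical.

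Class I molecules carry peptides of cytosolic proteins to the cell surface, where CD8 T cells and natural killer cells inspect them. The proteasome cuts the proteins, the TAP1 and TAP2 transporter brings peptides into the endoplasmic reticulum, and tapasin, the product of TAPBP, holds the heavy chain and B2M beside the transporter until a peptide binds. HLA-B and HLA-C are classical, highly variable heavy chains, HLA-E presents leader peptides of other class I chains to receptors of natural killer cells, and HLA-F is a less variable chain with low expression in most cells. The promoters of classical chains such as HLA-B and HLA-C are known to share an enhancer with NF-kB sites and an interferon-stimulated response element (ISRE). They also share an SXY module that holds a CRE-like X2 box and an inverted CCAAT box, and NLRC5 acts through the SXY module. Loss of this pathway is a known route of immune escape in colorectal cancer.

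The sequence before the start site is shown for HLA-F, the only member called in a knockdown, for the abundant chains HLA-B, HLA-C and B2M, and for TAP1. Each is the 250 bases upstream of the RefSeq start on GRCh38.p14, read 5′ to 3′ on the strand of the gene. Capitals mark an ISRE-type match (GAAA, any 2 bases, GAAA), a kB-type match GGGGATTC and a CCAAT box, each on either strand.

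HLA-F, chr6:29723184-29723433, plus strand: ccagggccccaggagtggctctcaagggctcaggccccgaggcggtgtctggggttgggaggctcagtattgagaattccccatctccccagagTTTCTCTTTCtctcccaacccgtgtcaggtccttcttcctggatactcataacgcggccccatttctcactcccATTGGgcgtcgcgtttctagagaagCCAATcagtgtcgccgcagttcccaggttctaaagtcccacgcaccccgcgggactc
HLA-B, chr6:31357180-31357429, minus strand: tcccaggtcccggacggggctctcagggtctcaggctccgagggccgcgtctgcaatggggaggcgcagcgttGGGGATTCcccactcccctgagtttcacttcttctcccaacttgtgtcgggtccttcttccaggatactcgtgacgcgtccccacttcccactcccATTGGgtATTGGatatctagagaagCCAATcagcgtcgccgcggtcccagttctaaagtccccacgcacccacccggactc
HLA-C, chr6:31272093-31272342, minus strand: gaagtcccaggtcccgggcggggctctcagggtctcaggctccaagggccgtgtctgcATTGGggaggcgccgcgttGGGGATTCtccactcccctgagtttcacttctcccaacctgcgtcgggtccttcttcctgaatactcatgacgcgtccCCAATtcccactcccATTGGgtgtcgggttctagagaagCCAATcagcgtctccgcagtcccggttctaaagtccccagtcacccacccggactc
B2M, chr15:44711267-44711516, plus strand: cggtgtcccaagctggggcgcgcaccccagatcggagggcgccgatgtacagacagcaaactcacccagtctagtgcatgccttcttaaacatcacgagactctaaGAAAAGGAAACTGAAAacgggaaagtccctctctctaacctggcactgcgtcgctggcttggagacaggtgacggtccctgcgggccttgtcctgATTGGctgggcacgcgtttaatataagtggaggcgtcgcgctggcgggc
TAP1, chr6:32853705-32853954, minus strand: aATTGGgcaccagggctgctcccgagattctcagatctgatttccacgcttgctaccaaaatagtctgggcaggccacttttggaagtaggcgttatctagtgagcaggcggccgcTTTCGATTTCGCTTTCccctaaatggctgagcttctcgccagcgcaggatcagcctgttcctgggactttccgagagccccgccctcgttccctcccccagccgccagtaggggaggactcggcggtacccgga

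Of the 9 genes, 7 had a RefSeq window. HLA-E and NLRC5 had no entry. The ISRE-type letters were found in HLA-F, B2M, TAP1, TAP2 and TAPBP, and in 3.02% of all 35116 windows of this length. The windows of HLA-B and HLA-C lack these exact letters, which does not mean that they lack an ISRE. In TAP1, TAPBP and B2M a pair of these matches overlap each other. The kB-type letters were found in HLA-B and HLA-C, 170 to 177 and 166 to 173 bases upstream of the start, and in 0.772% of all windows. In HLA-F the ISRE-type match lay 147 to 156 bases upstream, on the opposite strand. CCAAT boxes were found in HLA-F, HLA-B, HLA-C, TAP1 and B2M and in 32.0% of all windows, and the CRE-type letters TGACG, not capitalized here, in HLA-B, HLA-C, B2M and TAP2 and in 21.2%. The AP-2-type letters GCCNNNGGC were in 0 of the member windows and in 19.8% of all windows, which says only that these letters are not in these windows. A second RefSeq window of TAP1 held no capitalized motif. These matches are descriptions of letters and were not tested as sites.

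The position of a row affects how far its counts can be read. In the table of TFAP2C KD, whose positions are those of GRCh38, HLA-F (chromosome 6, 29722775 to 29738528) overlapped HLA-F-AS1 on the opposite strand, and TAP1 (chromosome 6, 32845209 to 32853978) overlapped PSMB9 on the opposite strand. HLA-B (chromosome 6, 31269491 to 31357188) is given a span of 87698 bases that overlaps HLA-C (chromosome 6, 31268749 to 31272130) on the same strand. HLA-E (30489509 to 30494194), TAP2 (32821833 to 32838770) and TAPBP (33299694 to 33314387) also lie on chromosome 6, B2M on chromosome 15 (44711487 to 44718877) and NLRC5 on chromosome 16 (56989485 to 57083531). The rows are whole genes, with exons, introns and UTRs in the span. In the table of UBA2 KD, on hg19, 205 rows are placed on haplotype chromosomes, and 5 of them are members (HLA-B, HLA-C, TAP1, TAP2 and TAPBP). Those 5 rows, and those of HLA-E and HLA-F, have spans over 1 Mb that join a start on a haplotype to an end on the primary chromosome, so no locus is given for them on hg19. The strand setting of the counting is not named in the sources used here. Reads of similar heavy chain genes could be split between rows, so the values of HLA-B, HLA-C, HLA-E and HLA-F are uncertain.

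Total counts were 20785035 to 24465109 in the siRNA experiment and 18213739 to 20607813 in the Dox experiment. Members took 0.171% to 0.181% of the counts of a library with siRNA and 0.0637% to 0.0666% of one with Dox or DMSO. The tables were counted on different annotations, so levels are compared only within a table. Values are CPM with library sizes scaled by TMM. TFAP2C had 18.9 and 20.5 CPM with control siRNA and 3.46 and 4.30 CPM in TFAP2C KD, a log2 fold change of -2.34 (SE 0.13, adjusted p = 7.67e-06, edgeR's quasi-likelihood test). UBA2 had 162 and 146 CPM in its controls and 147 and 153 CPM in the UBA2 KD-labelled libraries, a log2 fold change of -0.036 (95% interval -0.15 to 0.078). The UBA2 transcript was therefore not measurably lower, and the Dox-treated group is named below by its label only, as UBA2 KD-labelled libraries, with directions read from that label. Among markers of the colon epithelium, EPCAM, CDH1, KRT8, KRT18, KRT19 and CDX2 were expressed, KRT20 was low, and CDX1 (0 to 1 counts) and VIL1 (0 to 3 counts) were absent or nearly so.

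Per kilobase of the row's length, HLA-C had the highest level of the members in the siRNA experiment and NLRC5 the lowest. The mean over 4 libraries fell from 159 CPM per kb for HLA-C and 112 for HLA-B to 76.5 for B2M and 63.2 for HLA-E. TAPBP followed at 36.6, TAP1 at 21.8, TAP2 at 7.34, HLA-F at 4.96 and NLRC5 at 2.07. No neighbours in this order overlapped over the 4 libraries. In the Dox experiment, B2M came first with 111 CPM per kb, before HLA-C with 62.6, HLA-B with 30.1, HLA-E with 22.7, TAPBP with 20.3, TAP1 with 13.9 and TAP2 with 10.8. HLA-F (0.713 to 1.33) and NLRC5 (0.797 to 1.05) came last, and they were the only neighbours that overlapped. The row of B2M is 6.075 kb long in the first table and 1.611 kb in the second, and its place in the order moves with that length. HLA-B, HLA-C and B2M thus had the 3 highest levels of the members in both experiments, and HLA-F and NLRC5 the lowest.

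**Figure D1:**
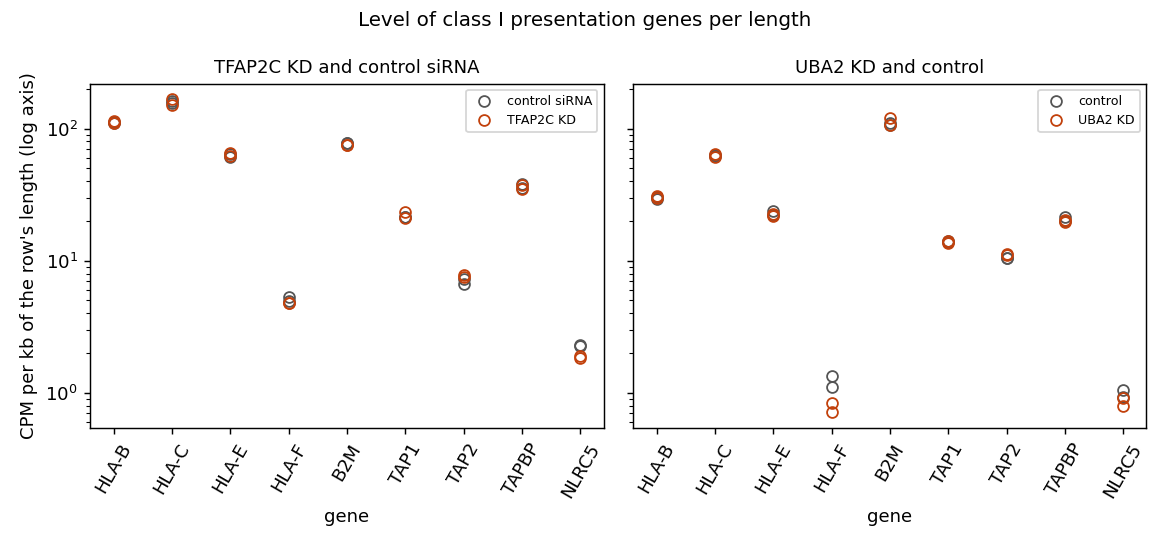
Level of each of the 9 genes in CPM per kilobase of row length on a log axis, with 1 point per library in the siRNA and in the Dox experiment. HLA-C leads in the former and B2M in the latter, and HLA-F and NLRC5 are lowest in both.

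In TFAP2C KD, 0 of the 9 genes passed an adjusted p under 0.05 in edgeR's quasi-likelihood test, where 0.740% of 14991 genes did (0.480% lower and 0.260% higher). The Wald test of DESeq2 also called 0. At an unadjusted p under 0.05 there was 1 of 9, NLRC5, which was lower. The share of all genes at that threshold was not counted, so unadjusted counts here and below have no background beside them. The median log2 fold change of the members was 0.0038, beside -0.0038 over all genes tested, and 4 of 9 values lay below 0, where 50.9% of all genes did. The 95% intervals of all members other than NLRC5 covered 0, with a median width to either side of 0.15 on the log2 scale. NLRC5, NLR family CARD domain containing protein and the main transactivator of class I genes, had 28.5 and 27.8 CPM with control siRNA and 23.3 and 22.6 CPM in TFAP2C KD. Both TFAP2C KD libraries lay below both controls. Its log2 fold change was -0.29 (SE 0.089, 95% interval -0.49 to -0.10, adjusted p = 0.196, edgeR), and it did not pass the test. Without TFAP2C KD replicate 1 the value was -0.32 and without TFAP2C KD replicate 2 it was -0.27. In those fits the spread came from the control pair alone. Over all genes tested, the chi-square between replicates per degree of freedom was 8.97 for the TFAP2C KD pair. It was 2.63 for control siRNA, and 2.55 and 2.75 for the controls and the UBA2 KD-labelled libraries. The TFAP2C KD pair thus differed most, and the effect of this on the calls was not tested.

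The classical chains overlapped between the groups. HLA-B had 334 and 341 CPM with control siRNA and 349 and 334 CPM in TFAP2C KD, and HLA-C had 390 and 404 CPM against 418 and 378 CPM. In both genes the replicates of TFAP2C KD straddled a control library, with log2 fold changes of 0.020 (95% interval -0.12 to 0.16) and 0.0038 (95% interval -0.15 to 0.16). HLA-E had 177 and 188 CPM with control siRNA and 190 and 181 CPM in TFAP2C KD, which also overlap. These signs are not fixed, because all 3 values lay below 0 when libraries were scaled by size alone. HLA-F, the chain of low expression, had 21.2 and 22.9 CPM against 20.6 and 20.7 CPM, with both TFAP2C KD libraries below the controls and a log2 fold change of -0.092 (95% interval -0.30 to 0.11).

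B2M and the loading genes gave similar results. B2M, without which heavy chains are not carried to the surface, had 473 and 475 CPM with control siRNA and 456 and 454 CPM in TFAP2C KD. The groups did not overlap, but the log2 fold change was -0.057 (SE 0.064) and its 95% interval reached from -0.20 to 0.082. TAP2, a subunit of the peptide transporter, was higher in both TFAP2C KD libraries, with 42.5 and 46.2 CPM against 49.99 and 48.1 CPM (log2 fold change 0.15, adjusted p = 0.486, edgeR). Its partner TAP1 had 103 and 102 CPM against 112 and 101 CPM, and TAPBP had 180 and 193 CPM against 189 and 177 CPM. Both overlapped between the groups. In all, 3 members lay below the controls without overlap (HLA-F, B2M and NLRC5) and 1 above (TAP2), where 22.4% of all genes tested lay below and 22.4% above, 44.7% together.

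**Figure D2:**
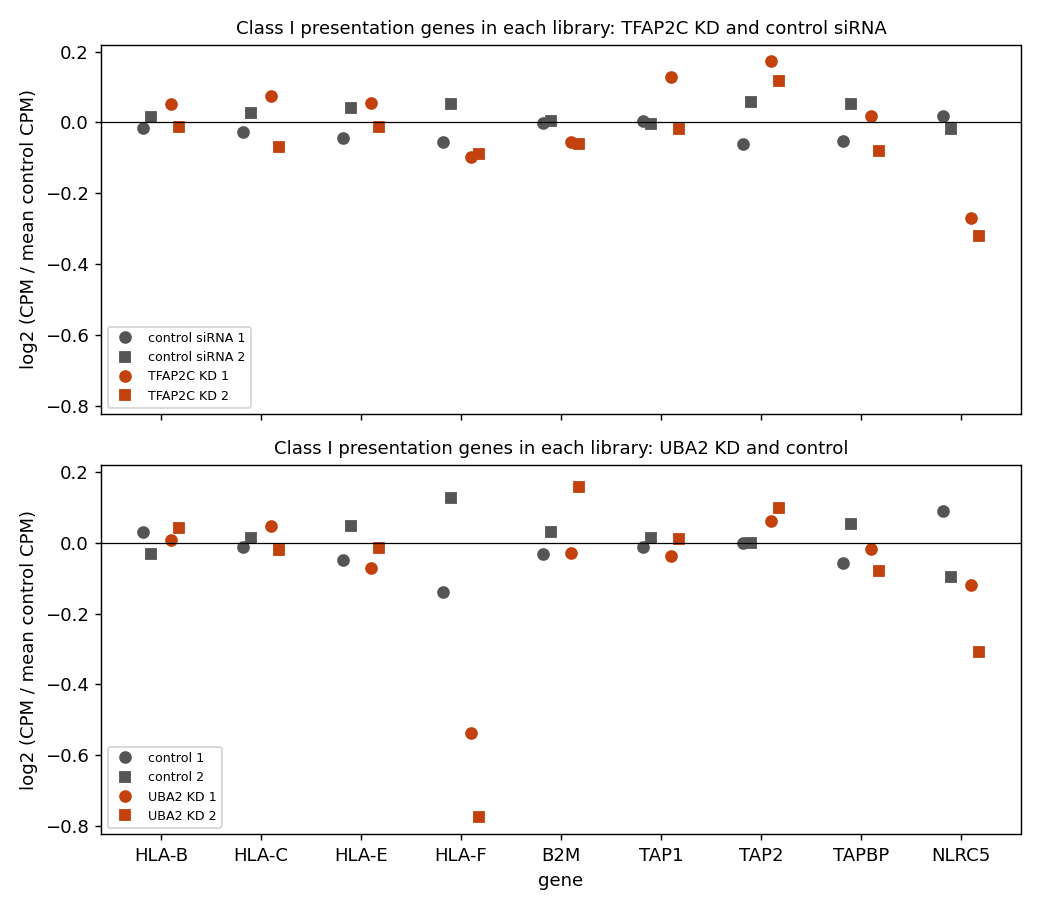
Log2 of the CPM of each of the 9 genes in every library divided by the mean CPM of the controls of the same experiment, with 1 point per library, gray for the 2 controls and orange for the 2 knockdown libraries. NLRC5 lies below its controls in TFAP2C KD, and HLA-F lies lowest in the UBA2 KD-labelled libraries.

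In the UBA2 KD-labelled libraries, 1 of the 9 genes was called, HLA-F, which was lower, where 9.98% of 13381 genes tested were called, 4.47% lower and 5.52% higher. A count of 1 of 9 is near this background. The median log2 fold change of the members was -0.015, beside -0.00042 over all genes, and 5 of 9 values lay below 0, where 50.1% of all genes did. HLA-F had 100 and 134 counts, or 5.34 and 6.42 CPM, in the controls and 73 and 64 counts, or 4.05 and 3.44 CPM, in the UBA2 KD-labelled libraries. Both UBA2 KD-labelled libraries lay below both controls, and the controls differed from each other by more than the treated pair did. The log2 fold change was -0.66 (SE 0.17, upper 95% limit -0.31, adjusted p = 0.00973, edgeR's quasi-likelihood test). It was no longer called without control replicate 2 (-0.51, adjusted p = 0.144, edgeR) or without UBA2 KD replicate 2 (-0.54, adjusted p = 0.0953, edgeR). DESeq2 gave an unadjusted p of 0.0172 in its Wald test and no adjusted p for this gene, so it called 0 members. In bulk RNA, fewer cells expressing a gene and less RNA per cell cannot be told apart.

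The antisense transcript HLA-F-AS1 moved in the same direction, with 68 and 83 counts in the controls and 42 and 51 counts in the UBA2 KD-labelled libraries. Its log2 fold change was -0.59 (SE 0.20, adjusted p = 0.0597, edgeR). As the strand setting is not named, reads of HLA-F and HLA-F-AS1 cannot be told apart with certainty. The counts of both rows together gave -0.63 (adjusted p = 0.00158, edgeR), in a fit chosen after these values were seen. When the rows of all listed class I heavy chains were summed into 1 feature, it gave 0.048 (adjusted p = 0.580, edgeR), and the sum, of which HLA-F is a small part, was not called.

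The other members did not pass the test in this experiment. HLA-B had 84.3 and 80.7 CPM in the controls and 83.0 and 84.8 CPM in the UBA2 KD-labelled libraries, and HLA-C had 102 and 104 CPM against 106 and 102 CPM. HLA-E had 61.9 and 66.2 CPM against 61.0 and 63.3 CPM. The groups overlapped for these 3 chains, and the log2 fold changes were 0.025 (95% interval -0.096 to 0.15), 0.013 (95% interval -0.10 to 0.13) and -0.044 (95% interval -0.18 to 0.087). With scaling by library size alone, those of HLA-B and HLA-C were -0.00054 and -0.013. B2M had 171 and 178 CPM in the controls and 171 and 194 CPM in the UBA2 KD-labelled libraries, and the groups overlap.

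Among the loading genes, TAP1 had 42.8 and 43.6 CPM against 42.1 and 43.5 CPM, and TAPBP had 92.2 and 99.4 CPM against 94.6 and 90.7 CPM. Both overlapped between the groups. TAP2 had 71.6 CPM in both controls and 74.7 and 76.6 CPM in the UBA2 KD-labelled libraries, a log2 fold change of 0.080 (95% interval -0.044 to 0.20, adjusted p = 0.474, edgeR). NLRC5 had 8.28 and 7.28 CPM in the controls and 7.16 and 6.28 CPM in the UBA2 KD-labelled libraries, which lie just below. Its log2 fold change was -0.21 (SE 0.14, 95% interval -0.49 to 0.077, adjusted p = 0.406, edgeR). Without overlap, 2 members were lower (HLA-F and NLRC5) and 1 was higher (TAP2), where 25.8% of all genes tested were lower and 25.5% were higher, 51.3% together.

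**Figure D3:**
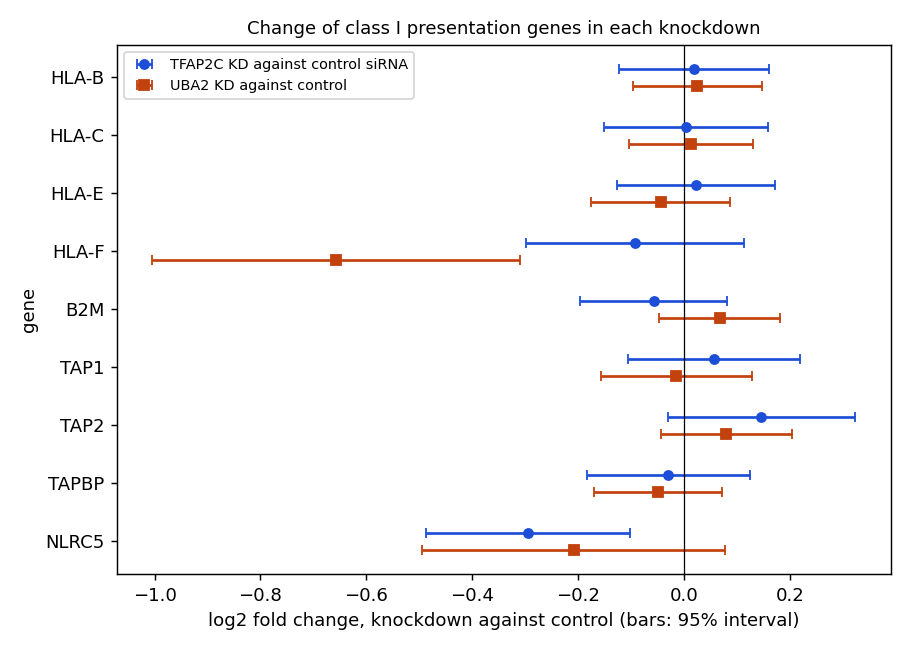
Log2 fold change of each of the 9 genes against its own controls in TFAP2C KD and in the UBA2 KD-labelled libraries, with 95% intervals from edgeR's quasi-likelihood fit of 4 libraries each. HLA-F at -0.66 is the only member with an adjusted p under 0.05, and the interval of NLRC5 in TFAP2C KD spans -0.49 to -0.10 without passing that adjustment.

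Whether a member changed differently in the 2 experiments was asked with all 8 libraries together, over 13179 genes. The interaction term called 0 of the 9 members (edgeR's quasi-likelihood test), where 2.37% of all genes were called, and 1 member, HLA-F, had an unadjusted p under 0.05. For HLA-F the log2 fold change of TFAP2C KD minus that of the UBA2 KD-labelled libraries was 0.55 (SE 0.18, 95% interval 0.16 to 0.94, adjusted p = 0.158, edgeR). For B2M it was -0.14 (adjusted p = 0.517, edgeR), and for NLRC5 it was -0.098 (adjusted p = 0.839, edgeR). The call of HLA-F in one experiment and not in the other is therefore not shown to be a difference between them. The median difference of the members was 0.0067, beside -0.00056 over all genes.

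Ratios between similar members were compared as counts. The count of HLA-B divided by that of HLA-C was 0.837 to 0.885 over the 4 siRNA libraries and 0.776 to 0.834 over the 4 Dox libraries. The count of TAP1 divided by that of TAP2, without length correction, was 2.41 and 2.21 with control siRNA and 2.24 and 2.10 in TFAP2C KD, which overlap. In the Dox experiment it was 0.599 and 0.610 in the controls and 0.564 and 0.568 in the UBA2 KD-labelled libraries, which do not overlap. This ratio was not tested, and 51.3% of single genes tested in that experiment did not overlap between the groups either. The rows of TAP1 and TAP2 differ in length and place between the tables, so the gap between the tables was not tested as a change in the cells.

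The surrounding pathway was followed in lists of genes. Of 25 other genes of antigen processing and loading, 19 were tested in TFAP2C KD and 0 were called (edgeR, 1 at an unadjusted p under 0.05, 0 called by DESeq2 of 17 with an adjusted p), with a median log2 fold change of -0.035. HLA-H, HLA-J, HLA-K and HLA-L were not listed among the genes counted in that experiment, so they could not be tested. In the UBA2 KD-labelled libraries, 20 of the 25 were tested, 1 was called higher and 2 lower, where 9.98% of all genes tested were called, and the median was -0.0011. HSPA5, the chaperone BiP of the endoplasmic reticulum, rose by 0.15 from 812 and 815 CPM to 902 and 901 CPM (adjusted p = 0.0147, edgeR). CALR, the lectin chaperone of the loading complex, fell by 0.18 on the log2 scale, from 982 and 956 CPM to 866 and 845 CPM (adjusted p = 0.00289, edgeR). PSMB9, a catalytic subunit of the immunoproteasome that lies beside TAP1, had 30 and 26 counts in the controls and 12 and 12 counts in the UBA2 KD-labelled libraries, a fall of 1.10 (SE 0.35, adjusted p = 0.0382, edgeR).

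These 3 calls are not equally firm. PSMB9 lost its call whichever library was left out, with adjusted p from 0.0676 to 0.277 (edgeR). HSPA5 lost it without control replicate 1 (adjusted p = 0.0746, edgeR) or control replicate 2 (adjusted p = 0.0701, edgeR), and CALR kept it with each library left out. With all 8 libraries in the fit, none of the 3 was called (adjusted p = 0.0939 for CALR, 0.126 for HSPA5 and 0.0527 for PSMB9, edgeR), and DESeq2 gave PSMB9 no adjusted p.

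Of 30 regulators of class I genes, 29 were tested in TFAP2C KD and 0 were called (edgeR, 1 at an unadjusted p under 0.05, 0 by DESeq2), with a median of -0.010. In the UBA2 KD-labelled libraries, 28 were tested, 0 were called higher and 1 lower, beside 5.52% and 4.47% of all genes tested, with a median of 0.041. This was RFX5, a subunit of the complex that binds the X box of class I and class II promoters, with 53.9 and 55.8 CPM in the controls and 45.9 and 47.5 CPM in the UBA2 KD-labelled libraries. Both treated libraries lay below both controls (log2 fold change -0.23, adjusted p = 0.0216, edgeR). The call was lost without control replicate 1 (adjusted p = 0.0505, edgeR), without control replicate 2 (adjusted p = 0.184, edgeR) and without UBA2 KD replicate 1 (adjusted p = 0.105, edgeR), as well as with all 8 libraries in the fit (adjusted p = 0.0576, edgeR) and in DESeq2 (adjusted p = 0.120).

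Class I-like genes and stress ligands were followed as well, as 12 genes. In TFAP2C KD, 0 of 11 tested were called (edgeR, 2 higher at an unadjusted p under 0.05, 0 by DESeq2 of 8 with an adjusted p), with a median of 0.066. In the UBA2 KD-labelled libraries, 1 of 8 tested was called higher and 3 lower, beside 5.52% and 4.47% of all genes tested, with a median of 0.037. ULBP1, a ligand of the receptor NKG2D on natural killer cells, rose from 10.3 and 10.9 CPM to 19.2 and 19.1 CPM (log2 fold change 0.85, SE 0.10, adjusted p = 2.68e-07, edgeR). MICB and MICA, ligands of the same receptor, fell. MICB had 56.4 and 51.6 CPM in the controls and 37.8 and 38.3 CPM in the UBA2 KD-labelled libraries (log2 fold change -0.50, adjusted p = 3.90e-06, edgeR), and MICA had 33.3 and 32.0 CPM against 26.7 and 26.3 CPM (log2 fold change -0.30, adjusted p = 0.0114, edgeR). These 3 ligands thus did not move in 1 direction. HFE, a class I-like regulator of iron uptake, fell from 12.9 and 12.1 CPM to 9.99 and 9.35 CPM (log2 fold change -0.37, adjusted p = 0.0364, edgeR). ULBP1 and MICB stayed called in all 11 alternatives. MICA lost its call without control replicate 1 (adjusted p = 0.0828, edgeR) and in DESeq2 (adjusted p = 0.101), and HFE lost it whichever library was left out (adjusted p from 0.0575 to 0.177, edgeR), with all 8 libraries in the fit (adjusted p = 0.0785, edgeR) and in DESeq2 (adjusted p = 0.294).

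**Figure D4:**
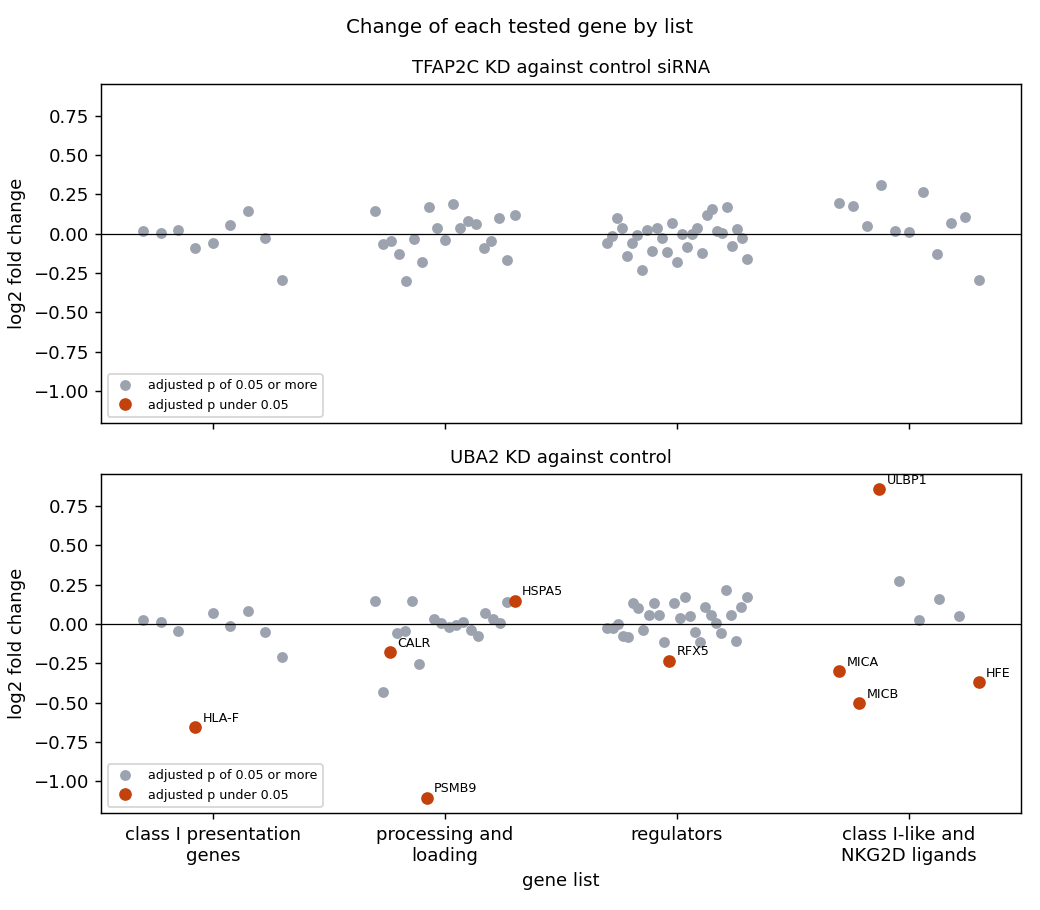
Log2 fold changes of the tested genes in the lists of processing and loading, regulators and class I-like genes, with the 9 members beside them, in TFAP2C KD and in the UBA2 KD-labelled libraries. Each point is a gene, and orange points with names have an adjusted p under 0.05, of which TFAP2C KD has 0.

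Cells of other types were looked for by their markers, because leukocytes express class I genes strongly. In the siRNA experiment, 2 of 9 leukocyte markers passed the filter, their summed level over all 9 was 9.44 to 9.55 CPM in the controls and 6.35 to 6.62 CPM in TFAP2C KD, and CD3E and MS4A1 were at 0 counts in every library. PTPRC, which marks all leukocytes, had 0 to 1 counts. The sum was made mostly of ITGAX, with 7.96 and 8.10 CPM in the controls and 5.71 and 5.10 CPM in TFAP2C KD, and thus moved in the direction of NLRC5. Its part in that value was not tested. In the Dox experiment the sum was 6.41 to 7.71 CPM in the controls and 6.60 to 7.41 CPM in the UBA2 KD-labelled libraries, which overlap. Within this sum, CD68 was higher in both UBA2 KD-labelled libraries (5.02 and 5.13 CPM in the controls against 5.77 and 5.53 CPM), whereas ITGAX (0.695 and 1.05 CPM against 0.611 and 0.430 CPM) and CD14 (5 and 9 counts against 2 and 3 counts) were lower in both, as HLA-F was. ITGAX and CD68 did not pass the test (adjusted p = 0.288 and adjusted p = 0.616, edgeR), CD14 was too low to be tested, and the part of these genes in the value of HLA-F was not tested. PTPRC had 1 and 11 counts in the controls and 0 and 15 counts in the UBA2 KD-labelled libraries. Of the epithelial markers, 3 of 7 tested were called higher in the UBA2 KD-labelled libraries (EPCAM, KRT8 and KRT18) and 0 lower, where 5.52% of all genes tested were called higher. EPCAM was close to the threshold (adjusted p = 0.0414, edgeR), and DESeq2 called 2 higher of the 6 markers to which it gave an adjusted p. The part of the rise of these markers in the values of HLA-F was not tested.

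The genes whose pattern over the 8 libraries was most like the members' mean were sought by Pearson's r of log2 CPM, centered within each experiment, over 9347 genes. They were PTMS (r = 0.996), IL27RA (0.991), B4GAT1 (0.986), PLEKHO2 (0.983) and LLGL1 (0.980). The members' mean, in centered log2 CPM, was 0.024 and 0.061 in the Dox experiment's controls and -0.032 and -0.053 in the UBA2 KD-labelled libraries. HLA-F (log2 fold change -0.66) and NLRC5 (-0.21), both of low counts, had the largest changes of the members there and weigh most in that fall. These are descriptions over 8 libraries of 2 experiments, with the highest values picked from many genes. Among themselves the members were not much alike, since the r of a member with the mean of the others ranged from -0.44 for TAP2 to 0.78 for TAPBP.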

How the data were processed

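mRNA-seq libraries of HCT116 cells were analysed in 4 groups of 2, taken from the sample labels. Per the methods and processing notes, the authors aligned single-end reads to hg19 with TopHat2 and counted RefSeq genes with HTSeq 0.9.1. They deposited raw read counts per gene, without normalization, beside the length of each row in kilobases. The table of TFAP2C KD holds GRCh38 positions and Ensembl gene types, which differ from that description.

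Counts were filtered with filterByExpr, scaled by TMM and tested with the quasi-likelihood test of edgeR 4.0.16 in R 4.3.3, separately for each table, over 14991 and 13381 genes. Adjustment was by Benjamini-Hochberg over all genes tested, at 0.05, and tests were two-sided. SEs and 95% intervals were derived from each fold change and the F value of its test. CPM use TMM-scaled library sizes. Total counts per library ranged from 18213739 to 24465109, and the biological coefficient of variation was 6.28% for TFAP2C KD and 3.56% for UBA2 KD. The 8-library fit tested the difference between the knockdowns over shared symbols.

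The members and lists were chosen with earlier results of these data known. The named genes are the 9 members, the targeted genes, every list gene called in either knockdown, and the 5 genes most like the members' mean. HLA-F-AS1, PSMB9 as a neighbour of TAP1, class II genes, CIITA and single marker genes were named after their values were seen. Alternatives were other scaling, filters, DESeq2 1.42.0, replicate blocks, summed heavy chain rows, removal of 37 mitochondrial rows and each library left out. A gene of the processing and loading list was left out and is not reported here. The code was tested on simulated data.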

Additional observations from a re-analysis of the deposited data

Results flagged for a closer look

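Fold changes of TFAP2C KD and of the UBA2 KD-labelled libraries were set against each other by the interaction term of edgeR. Of the 12 genes in the class I-like list, not all of which were fitted, 3 differed, where 2.37% of all 13179 genes were called. No other gene fitted from the members and the lists of processing and loading, regulators, class II and class I-like genes passed. These 3 are named because they passed. On the log2 scale, TFAP2C KD minus UBA2 KD-labelled was 0.48 for MICA (adjusted p = 0.0227, edgeR), 0.67 for MICB (adjusted p = 0.00490, edgeR) and -0.82 for ULBP1 (adjusted p = 0.00831, edgeR). MICA lost its call in 7 of 10 alternatives, with the replicate block (adjusted p = 0.0935, edgeR) and without each library other than the TFAP2C KD pair (adjusted p from 0.0678 to 0.127, edgeR). MICB lost it in 1, without UBA2 KD replicate 1 (adjusted p = 0.0509, edgeR). ULBP1 lost it in 3, without control siRNA replicate 2 (adjusted p = 0.0864, edgeR), without control replicate 1 (adjusted p = 0.0655, edgeR) and without UBA2 KD replicate 1 (adjusted p = 0.0614, edgeR).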

How the results depend on the processing

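In TFAP2C KD, 111 genes were called in all, against 398 without a filter, 172 with the replicate number as a block, 271 with all 8 libraries in the fit, 467 with a crossed replicate block chosen after seeing the data, and 49 to 2825 when 1 library was left out (49 without control siRNA replicate 1, 74 without control siRNA replicate 2, 537 without TFAP2C KD replicate 1 and 2825 without TFAP2C KD replicate 2). The count of members called was 0 to 1 with a library left out, and it was 1 (NLRC5) without either TFAP2C KD library and 0 in every other alternative. For UBA2 KD, 1336 genes were called in all, against 673 with DESeq2, 696 with all 8 libraries and 833 to 1271 with 1 library left out. The count of members called was 0 with DESeq2 and 0 to 1 with a library left out. The members' median in UBA2 KD was -0.041 with library size alone and -0.027 to 0.0070 with a library left out.

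Signs reversed with library size alone for HLA-B (-0.0090), HLA-C (-0.025) and HLA-E (-0.0063) in TFAP2C KD and for HLA-B (-0.00054) and HLA-C (-0.013) in UBA2 KD, and with all 8 libraries for HLA-C in TFAP2C KD (-0.0064). With heavy chain rows summed, the feature that holds HLA-F was at 0.033 in TFAP2C KD, and that of HLA-E and HLA-F at 0.048 in UBA2 KD. With a library left out, TFAP2C KD ranges crossed 0 for HLA-B (-0.012 to 0.054), HLA-C (-0.069 to 0.077), HLA-E (-0.020 to 0.059), TAP1 (-0.018 to 0.13) and TAPBP (-0.080 to 0.022). Those of UBA2 KD crossed 0 for HLA-B (-0.0059 to 0.057), HLA-C (-0.020 to 0.047), HLA-E (-0.090 to 0.0070), B2M (-0.027 to 0.16), TAP1 (-0.038 to 0.0096) and TAPBP (-0.10 to 0.0081). The differences between the knockdowns crossed 0 for HLA-B (-0.042 to 0.014), HLA-C (-0.074 to 0.038), TAP2 (-0.0035 to 0.13), TAPBP (-0.050 to 0.076) and NLRC5 (-0.19 to 0.0049). The cause was not tested.

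The replicate numbers pair no samples by the labels. Same-numbered libraries had deviations correlated at -0.28 over genes in the siRNA experiment and -0.052 in the Dox experiment. With the replicate number as a block, HLA-F in UBA2 KD was at -0.66 (adjusted p = 0.00333, edgeR) and NLRC5 in TFAP2C KD at -0.29 (adjusted p = 0.348, edgeR). Depth limits HLA-F in UBA2 KD, with 64 to 134 counts, and PSMB9, with 12 to 30 counts.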

Other observations

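MHC class II genes, which present peptides of extracellular proteins and are normally expressed by professional antigen-presenting cells, were mostly low in these cells. HLA-DMA was the highest of them in the siRNA experiment, with 15.4 and 16.0 CPM in the controls and 14.8 and 15.2 CPM in TFAP2C KD. Of 11 genes, 10 were tested in TFAP2C KD and 9 had a log2 fold change below 0, where 50.9% of all genes tested did, with a median of -0.38. Of the 10, 0 were called by edgeR, 3 were lower at an unadjusted p under 0.05, and DESeq2 called 0 of the 5 to which it gave an adjusted p. These 3 were named after their values were seen. HLA-DRA had 3.98 and 3.88 CPM with control siRNA and 2.84 and 2.51 CPM in TFAP2C KD (adjusted p = 0.203, edgeR). HLA-DMB had 3.41 and 2.88 CPM against 2.25 and 2.01 CPM (adjusted p = 0.256, edgeR), and HLA-DOA had 1.72 and 2.40 CPM against 1.21 and 1.21 CPM (adjusted p = 0.244, edgeR). All 3 were lower in both TFAP2C KD libraries, without passing the test. They were picked by their unadjusted p in this comparison, so this adds no separate support. Without overlap, 7 of the 10 tested class II genes lay below the controls and 0 above, where 22.4% and 22.4% of all genes tested did. The summed CPM of leukocyte markers moved in the same direction in that experiment, and its part in these values was not tested. In the UBA2 KD-labelled libraries, 2 of 11 class II genes were tested and 0 were called (edgeR, 1 lower at an unadjusted p under 0.05), and DESeq2 gave neither an adjusted p. CIITA, the master transactivator of class II genes, had 6 to 11 counts in the siRNA libraries and 0 to 3 counts in the Dox libraries.

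Fibroblast markers summed to 46.5 to 48.2 CPM with control siRNA and 44.0 to 45.2 CPM in TFAP2C KD, and to 15.8 to 22.1 CPM in controls and 15.1 to 16.5 CPM in the UBA2 KD-labelled libraries, with 3 of 5 markers at 0 counts throughout each experiment. These sums were made mostly of COL1A1, which had 47.5 and 45.4 CPM with control siRNA and 43.2 and 43.7 CPM in TFAP2C KD. In the Dox experiment it had 15.7 and 21.8 CPM in the controls and 14.9 and 16.1 CPM in the UBA2 KD-labelled libraries. COL1A1 was not called in either (adjusted p = 0.643 and adjusted p = 0.135, edgeR). Endothelial markers summed to at most 2.66 CPM in any library.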
